A study of Mus musculus with 10 samples.

Results

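The voltage-gated sodium and calcium channel genes examined here were the protein-coding genes whose symbol was Scn, a number and a or b, or started with Cacna, Cacnb or Cacng, with Scn10a and Scn11a left out by the rule. They numbered 38 of the 32506 genes counted, 12 for sodium channels and 26 for calcium channels. The lumbar spinal cord was profiled by RNA-sequencing, with 1 library per mouse, from 5 female FVB/N mice that overexpress SOD1G86R, a mutant form of superoxide dismutase 1 used as a model of amyotrophic lateral sclerosis, and from 5 litter-matched, non-transgenic wild type (WT) females. All mice were 95 days old, an age at which the transgenic mice show motor symptoms, and all were perfused with saline before dissection. The promoter that drives the transgene was not given in the sources used here.

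A voltage-gated sodium channel is a large pore protein that opens on depolarisation and shuts again through an inactivation gate, and it starts and carries the action potential. Its small beta subunits adjust gating and anchor it in the membrane. A voltage-gated calcium channel is built on a pore of the same design, and its entry of calcium releases transmitter at nerve terminals and couples excitation to contraction in muscle. Beta and alpha2delta subunits bring the calcium pore to the membrane. Most members of the gamma family are better known as partners of AMPA receptors, the receptors of fast glutamate transmission.

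The sodium pores are near copies of each other in parts of their sequence, and Scn1a, Scn2a, Scn3a, Scn7a and Scn9a lie together on chromosome 2. Over whole transcripts, the share of 50-base words that also occur in another of the 38 genes was 6.49% in Scn3a, 5.62% in Scn2a, 4.04% in Scn9a and 4.03% in Scn1a, and at most 0.201% in any other. Reads of these 4 genes that fall in such stretches may be lost or placed in the wrong gene, so their levels are less certain than the rest.

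Between 31494723 and 37080445 reads were counted per SOD1G86R library, against 29333590 to 46003999 per WT library. Levels are given as CPM, the reads of a gene per 1000000 reads of its library, scaled between libraries. Sod1, which the transgene adds to, stood at 3918 to 6415 CPM in SOD1G86R mice, against 127 to 210 CPM in WT mice, so that each library fitted its label. The 11 neuron markers read for the tissue had a summed level of 6506 to 7791 CPM in SOD1G86R mice and 6882 to 7204 CPM in WT mice, and none of them passed the test. For 6 motor neuron markers the sum was 161.1 to 303 CPM in SOD1G86R mice and 188.8 to 244.5 CPM in WT mice. Their log2 fold changes were negative for 4 and positive for 2, and none passed the test. Of the 7 microglia markers 2 were higher in SOD1G86R mice and none was lower, beside 0.866% of all genes higher and 0.253% lower, and all 7 had an unadjusted p under 0.05. In whole tissue, fewer cells of a type and less RNA per cell cannot be told apart.

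None of the channel genes passed the test between genotypes. Of the 38 genes, 36 had enough reads to be tested, and 0 reached an adjusted p under 0.01 in edgeR's quasi-likelihood test, beside 1.12% of the 16974 genes tested. The count was also 0 with DESeq2, which called 4.81% of all genes, and with limma voom, which called 0.348%. At an unadjusted p under 0.05, 4 channel genes were lower in SOD1G86R mice and 0 were higher, beside 6.33% of all genes lower and 10.8% higher. The log2 fold change of SOD1G86R over WT was negative for 20 channel genes and positive for 16, with a median of -0.03, beside 52.3% negative and a median of -0.01 over all genes tested.

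For most of the family the intervals set a bound on any difference in whole-tissue level, though not on a change confined to a minor cell type. The 95% confidence interval of the log2 fold change lay between -0.5 and 0.5 for 29 of the 36 genes, and the estimate itself was within 0.2 of 0 for 30. The intervals of Scn4a, Scn7a, Scn9a, Cacna1s, Cacna2d4 and Cacng1 were wider, and each of these genes averaged less than 7 CPM in both groups. Cacna1f, the retinal calcium pore, and Cacng6 were removed before the test because of low counts, with 3 to 9 reads per SOD1G86R library for Cacna1f, against 1 to 8 per WT library, and 2 to 35 for Cacng6 in SOD1G86R libraries, against 1 to 25 in WT libraries.

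**Figure D1:**
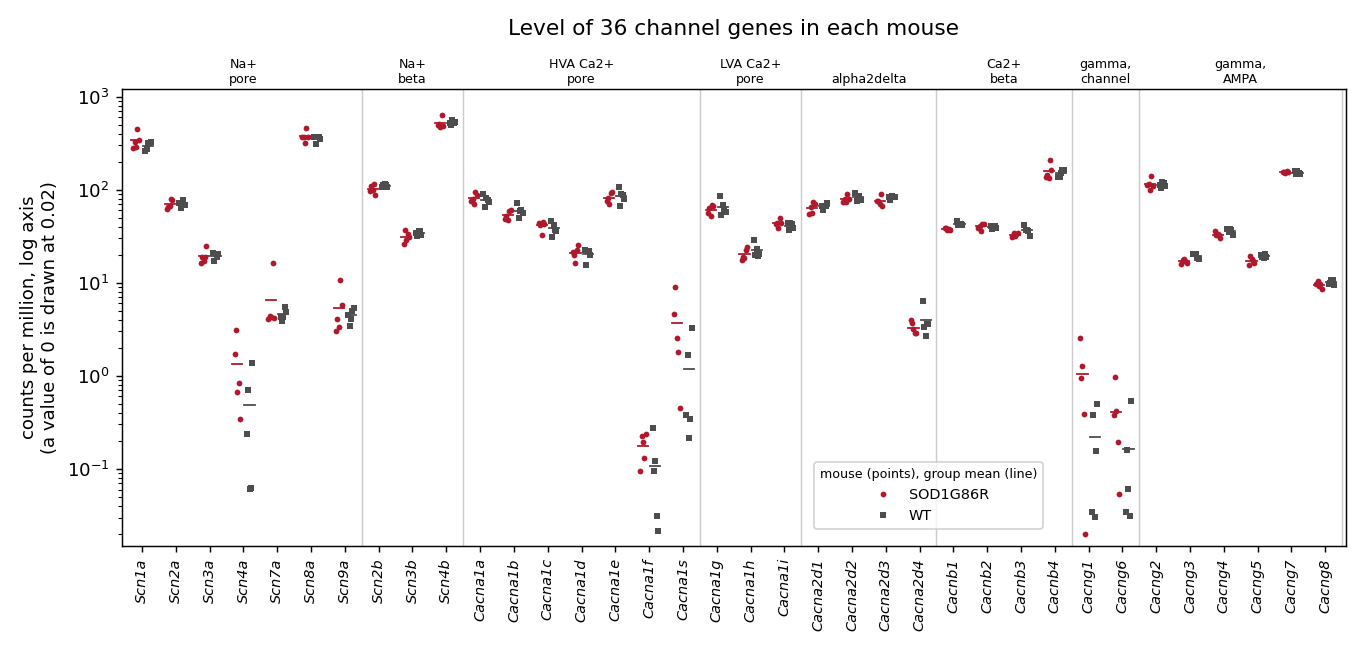
CPM (log axis) of 36 of the 38 channel genes, grouped by the role of the protein, with a point for each mouse and a line at each group mean. The 5 SOD1G86R mice (red circles, left) and the 5 WT mice (grey squares, right) lie at the same height for most genes, while Scn4a, Cacna1s, Cacng1 and Cacng6 spread widely within both groups and 1 SOD1G86R mouse stands above the rest in Scn7a and Scn9a.

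**Figure D2:**
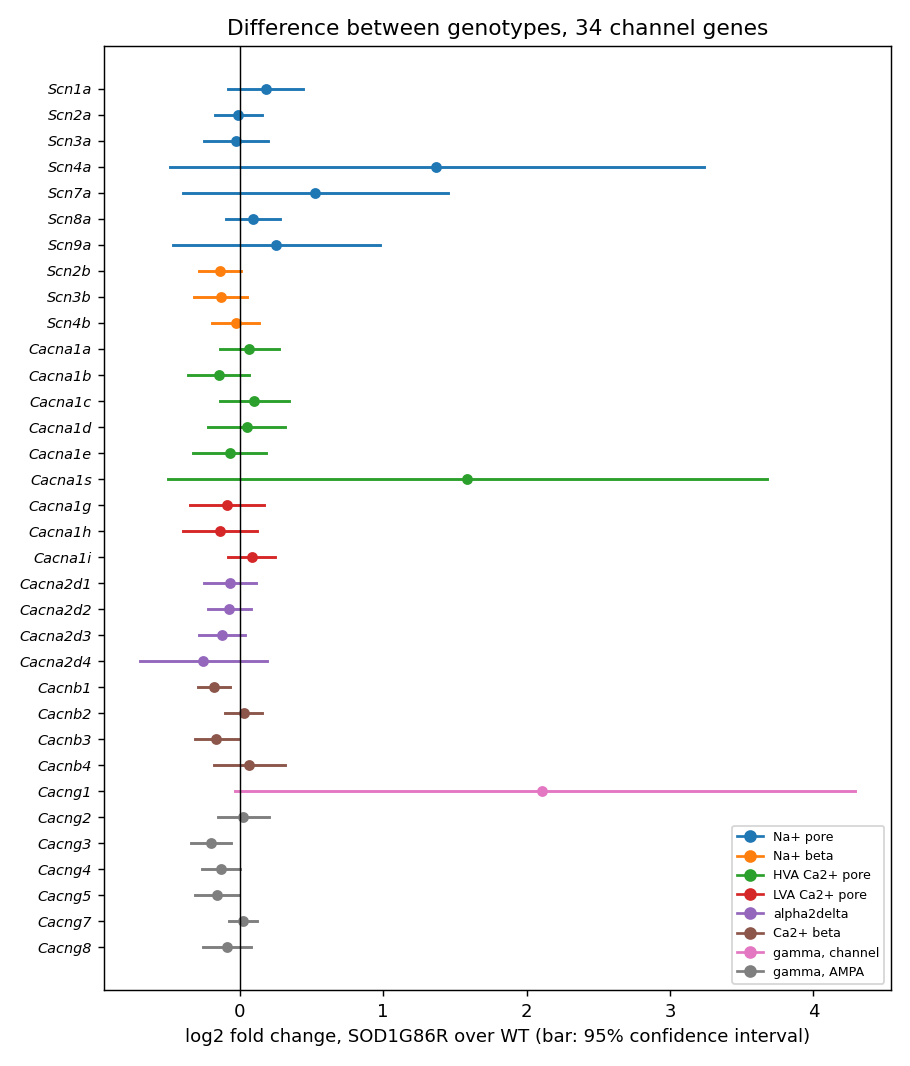
log2 fold change of SOD1G86R over WT (point) with its 95% confidence interval (bar) for 34 of the 36 tested channel genes, coloured by role. The intervals of Cacnb1, Cacnb3, Cacng3 and Cacng5 lie below 0, and those of the genes with low counts, such as Cacng1 and Cacna1s, are the widest.

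Among the sodium pores, Scn1a and Scn8a supplied most of the message. Scn1a is a pore best known from inhibitory interneurons, and Scn8a is the main pore of the axon initial segment and the nodes of Ranvier. Per kilobase of exon, Scn1a averaged 30.4 ± 6.15 CPM in SOD1G86R mice and 26.8 ± 2.61 CPM in WT mice, and Scn8a 23.9 ± 3.40 CPM in SOD1G86R mice and 22.4 ± 1.52 CPM in WT mice (SD, n = 5 each). Scn2a, the pore of unmyelinated and developing axons, followed at 5.51 ± 0.602 CPM per kilobase in SOD1G86R mice and 5.54 ± 0.370 in WT mice. Scn3a, a pore best known from the embryo, averaged 1.54 and 1.57 CPM per kilobase in SOD1G86R and WT mice. As a share of the per-kilobase level of the 7 sodium pores apart from Scn4a, Scn1a made up 45.6% to 50.2% in SOD1G86R mice and 42.3% to 48.7% in WT mice, and Scn8a 36.4% to 41.7% in SOD1G86R mice and 37.4% to 42.6% in WT mice. The ranges of the groups overlapped for both shares.

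Scn1a did not pass the test. Its levels were 282, 328, 289, 453 and 341 CPM in SOD1G86R mice, against 260, 274, 316, 316 and 325 CPM in WT mice. The groups overlapped, and SOD1G86R replicate 4 was the highest of all mice. The log2 fold change was 0.18 ± 0.12 (SE; adjusted p = 0.479, edgeR), and 0.06 without that mouse. Scn8a stood at 366, 369, 316, 464 and 372 CPM in SOD1G86R mice, against 371, 313, 366, 367 and 353 CPM in WT mice. Its groups overlapped too, again with SOD1G86R replicate 4 on top, and its log2 fold change was 0.09 ± 0.09 (SE; adjusted p = 0.640, edgeR). Scn2a and Scn3a had log2 fold changes of -0.01 and -0.03.

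Of the sodium channel beta subunits, Scn4b, the subunit tied to resurgent current in fast-firing neurons, averaged 104 ± 13.0 CPM per kilobase in SOD1G86R mice and 106 ± 5.56 in WT mice (SD, n = 5 each). Its log2 fold change was -0.03, with an interval of -0.19 to 0.14. Scn2b, which links to the pore covalently, stood at 96.8, 108, 98.6, 115 and 86.7 CPM in SOD1G86R mice, against 108, 111, 116, 113 and 107 CPM in WT mice. Of the SOD1G86R mice 3 lay below the WT range and 2 within it, and the log2 fold change was -0.14 ± 0.07 (SE; adjusted p = 0.340, edgeR). Scn3b ranged from 25.8 to 36.7 CPM in SOD1G86R mice and 31.8 to 36.4 CPM in WT mice, with a log2 fold change of -0.13 (adjusted p = 0.472, edgeR).

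Per kilobase of merged exon, Cacna1a and Cacna1b were the most abundant of the high voltage-activated calcium pores. Cacna1a forms the P/Q-type channel and Cacna1b the N-type channel, which together trigger most transmitter release. Cacna1a averaged 7.13 ± 0.874 CPM per kilobase in SOD1G86R mice and 6.80 ± 0.821 in WT mice, and Cacna1b 5.38 ± 0.613 in SOD1G86R mice and 5.96 ± 0.801 in WT mice (SD, n = 5 each). Cacna1a had 75.8, 79.3, 69.5, 95 and 87.5 CPM in SOD1G86R mice, against 90.4, 65.6, 82.4, 76.8 and 73.1 CPM in WT mice. Cacna1b had 48.5, 52.7, 46.9, 59.6 and 60 CPM in SOD1G86R mice, against 71.2, 49.3, 59.1, 60.7 and 56.1 CPM in WT mice. The groups overlapped for both genes, and WT replicate 1 was the highest WT mouse in each. Their log2 fold changes had opposite signs, 0.07 ± 0.10 for Cacna1a (SE; adjusted p = 0.764, edgeR) and -0.15 ± 0.10 for Cacna1b (adjusted p = 0.479, edgeR).

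Set against each other within a library, the groups did not overlap for these 2 pores. Cacna1b CPM divided by Cacna1a CPM was 0.64, 0.66, 0.67, 0.63 and 0.69 in SOD1G86R mice, against 0.79, 0.75, 0.72, 0.79 and 0.77 in WT mice, so that the ratio of every SOD1G86R mouse was below that of every WT mouse. Of the summed per-kilobase level of the 8 calcium pores apart from Cacna1s and Cacna1f, Cacna1b made up 16.3% to 17.3% in SOD1G86R mice and 17.6% to 19.0% in WT mice, and Cacna1a 21.9% to 23.1% in SOD1G86R mice and 20.2% to 21.3% in WT mice. The ranges of the groups overlapped for the other 6 pores. This pair was picked after its values were seen, ratios of other pairs were not computed, and the ratio carries no test.

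Cacna1e, the R-type pore, stood at 70.3 to 94.5 CPM in SOD1G86R mice and 67.1 to 107 CPM in WT mice, with a log2 fold change of -0.07. Its mean CPM was above those of Cacna1a and Cacna1b in both groups. The merged exons of Cacna1e span 25228 bases and its longest transcript 14921, so its rank per length depends on the length used. The L-type pores Cacna1c and Cacna1d, of which Cacna1d opens at the lower voltages and carries persistent inward currents of motor neurons, had log2 fold changes of 0.10 and 0.05. Cacna1c ranged from 32.3 to 45.5 CPM in SOD1G86R mice and 31.4 to 46.6 CPM in WT mice, and Cacna1d from 16.4 to 25.5 CPM in SOD1G86R mice and 15.5 to 22.7 CPM in WT mice. Their adjusted p-values were 0.689 and 0.879 (edgeR). The low voltage-activated T-type pores Cacna1g, Cacna1h and Cacna1i had log2 fold changes of -0.09, -0.14 and 0.09, and their groups overlapped. Cacna1h, which also amplifies signals of sensory neurons, ranged from 17.7 to 24.2 CPM in SOD1G86R mice and 19.6 to 28.8 CPM in WT mice, and Cacna1i from 38.4 to 50.2 CPM in SOD1G86R mice and 36.9 to 44.1 CPM in WT mice. For Cacna1g, WT replicate 1 had 84.9 CPM and the other WT mice 53.3 to 67.7 CPM, beside 52.1 to 68.3 CPM in SOD1G86R mice, and the log2 fold change was 0.02 without that WT mouse.

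The calcium beta subunits, which bind the pore inside the cell, held the gene with the smallest p of the family. Cacnb1, on chr11:98001508-98023034 of GRCm38, minus strand, is the beta subunit of muscle and is also made in brain. Its levels were 38.7, 39.2, 36.5, 37.7 and 36.9 CPM in SOD1G86R mice, against 46.6, 41.5, 41.8, 42.3 and 41.9 CPM in WT mice. Every SOD1G86R mouse was below every WT mouse, and no other channel gene had groups that did not overlap, beside 1.84% of all genes apart and lower. The log2 fold change was -0.18 ± 0.05 (SE; 95% interval -0.29 to -0.07; adjusted p = 0.0719, edgeR), which did not pass the test. Leaving out any 1 mouse gave log2 fold changes of -0.19 to -0.15. The adjusted p was 0.0146 with DESeq2 and 0.0798 with limma voom. Its exons overlap those of Gm11629 on the other strand over 1.8% of their length.

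Cacnb3, a neuronal beta subunit, had 31.4, 34.0, 31.9, 33.2 and 34.1 CPM in SOD1G86R mice, against 42.2, 36.8, 37.2, 35.9 and 31.9 CPM in WT mice. WT replicate 5 lay among the SOD1G86R mice and the other 4 WT mice above all of them. The log2 fold change was -0.16 ± 0.07 (SE; adjusted p = 0.252, edgeR). Cacnb4, the most abundant beta subunit per length and one that is bound to P/Q-type pores, averaged 17.5 ± 3.36 CPM per kilobase in SOD1G86R mice and 16.7 ± 1.59 in WT mice, and Cacnb2, also the subunit of the heart, averaged 3.05 ± 0.222 in SOD1G86R mice and 2.99 ± 0.101 in WT mice (SD, n = 5 each). Their log2 fold changes were 0.07 and 0.03. Over 16% of its exon length Cacnb4 overlaps A430018G15Rik on the other strand, and since no strand setting of the counting was given, reads of the pair cannot be told apart.

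The alpha2delta subunits are the family that binds gabapentin through Cacna2d1 and Cacna2d2. All 4 had negative log2 fold changes, beside 52.3% of all genes tested, and none passed the test. The estimates were -0.07 for Cacna2d1, -0.07 for Cacna2d2, -0.12 for Cacna2d3 and -0.25 for Cacna2d4, with adjusted p-values from 0.427 to 0.735 (edgeR). The estimate of Cacna2d4 was -0.01 without WT replicate 1, which had 6.45 CPM. Cacna2d1 ranged from 54.5 to 73.7 CPM in SOD1G86R mice and 60.8 to 71.2 CPM in WT mice, and Cacna2d2 from 72.9 to 89.3 CPM in SOD1G86R mice and 75.4 to 91.2 CPM in WT mice. Cacna2d3 had 76.3, 76.0, 69.8, 90.2 and 66.2 CPM in SOD1G86R mice, against 82.8, 77.4, 85.8, 83.2 and 83.2 CPM in WT mice. In this gene 4 of the SOD1G86R mice were below the WT range and SOD1G86R replicate 4 above it. Without that mouse the log2 fold change was -0.20 and the adjusted p 0.0571 (edgeR), the smallest of the family in that fit. That fit called 5.05% of all genes, against 1.12% with all mice. Without SOD1G86R replicate 5 instead, the log2 fold change of Cacna2d3 was -0.08 and the adjusted p 0.667 (edgeR).

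The gamma genes of the AMPA receptor type comprised abundant members with estimates near 0 and scarcer ones with negative estimates. Cacng7 averaged 155 ± 3.73 CPM in SOD1G86R mice and 153 ± 6.04 CPM in WT mice, and Cacng2, the gene of stargazin, 115 ± 15.5 CPM in SOD1G86R mice and 113 ± 6.76 CPM in WT mice (SD, n = 5 each), with log2 fold changes of 0.02 for both. Cacng3 had 15.8, 17.7, 18.2, 17.0 and 16.2 CPM in SOD1G86R mice, against 20.2, 20.5, 20.5, 18.4 and 18.04 CPM in WT mice. SOD1G86R replicate 3 alone lay within the WT range, and the other 4 were below it. The log2 fold change was -0.20 ± 0.07 (SE; adjusted p = 0.121, edgeR).

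Cacng5 had 15.7, 19.5, 18, 17.3 and 16.2 CPM in SOD1G86R mice, against 19.9, 18.7, 18.6, 20.6 and 18.9 CPM in WT mice. SOD1G86R replicate 2 lay within the WT range and the other 4 below it, and the log2 fold change was -0.16 ± 0.07 (SE; adjusted p = 0.272, edgeR). Cacng4 ranged from 30.3 to 36.03 CPM in SOD1G86R mice and 32.9 to 38 CPM in WT mice, and Cacng8 from 8.61 to 10.4 CPM in SOD1G86R mice and 9.35 to 10.8 CPM in WT mice. Cacng4 and Cacng8 had log2 fold changes of -0.13 and -0.09, with adjusted p-values of 0.297 and 0.618 (edgeR).

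Cacna1s, Scn4a and Cacng1, channel genes of skeletal muscle, varied from mouse to mouse together with muscle markers. Cacna1s, the voltage sensor of muscle contraction, had 4.67, 9.04, 2.54, 1.78 and 0.452 CPM in SOD1G86R mice, against 0.375, 1.68, 0.212, 0.341 and 3.296 CPM in WT mice. The summed level of 8 skeletal muscle markers, among them Acta1 and Ckm, was 441, 907, 287, 116 and 13.8 CPM in SOD1G86R mice, against 21.9, 138, 8.41, 4.99 and 282 CPM in WT mice. SOD1G86R replicates 1 and 2 were the 2 highest mice in both, and WT replicates 3 and 4 the 2 lowest. Cacnb1, the beta subunit of muscle that is also made in brain, was instead highest in WT replicate 1, whose marker sum was 21.9 CPM.

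Scn4a, the sodium pore of muscle, had 1.70, 3.14, 0.663, 0.843 and 0.346 CPM in SOD1G86R mice, against 0.239, 0.699, 0.0607, 0.0620 and 1.37 CPM in WT mice. Cacng1, the gamma subunit of the muscle channel, had 2.56, 0.955, 1.27, 0.389 and 0 CPM in SOD1G86R mice, against 0.0341, 0.381, 0.0304, 0.155 and 0.499 CPM in WT mice. Both genes overlapped between groups, and both were higher in the 6 mice with the highest sums of muscle markers, SOD1G86R replicates 1 to 4 and WT replicates 2 and 5, than in the other 4 mice. The log2 fold changes were 1.59 for Cacna1s, 1.37 for Scn4a and 2.11 for Cacng1, the 3 largest of the family, with adjusted p-values of 0.430, 0.446 and 0.300 (edgeR). Without 1 mouse they ranged from 0.94 to 2.50 for Cacna1s, 0.77 to 2.33 for Scn4a and 1.47 to 2.74 for Cacng1, lowest without SOD1G86R replicate 2 for Cacna1s and Scn4a and without SOD1G86R replicate 1 for Cacng1, and highest without WT replicate 5 for all 3. All 8 muscle markers had positive log2 fold changes and none passed the test, and the part of muscle RNA in these 3 genes was not tested. Over 20% of its exon length Cacna1s overlaps the antisense gene Gm37759.

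**Figure D3:**
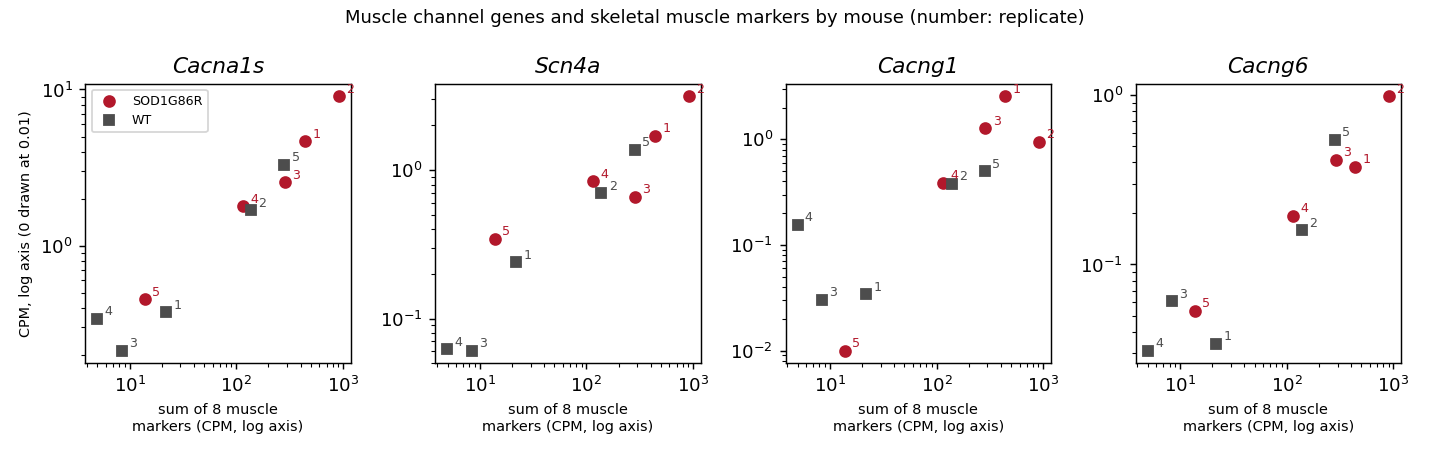
CPM of Cacna1s, Scn4a, Cacng1 and Cacng6 (log axis) against the summed CPM of 8 skeletal muscle markers (log axis) in each of the 5 SOD1G86R mice (red circles) and 5 WT mice (grey squares), numbered by replicate. All 4 genes are higher in the 6 mice with the highest marker sums, SOD1G86R replicates 1 to 4 and WT replicates 2 and 5, than in the other 4 mice.

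The estimates of 2 sodium pores known from sensory ganglia rested on 1 mouse. Scn9a, the pore that amplifies small depolarisations in pain-sensing neurons, had 3.03, 4.04, 3.31, 10.8 and 5.77 CPM in SOD1G86R mice, against 4.54, 3.43, 4.10, 5.02 and 5.42 CPM in WT mice. Scn7a, whose product senses sodium concentration rather than voltage, had 4.04, 4.38, 4.28, 16.2 and 4.15 CPM in SOD1G86R mice, against 4.30, 3.91, 4.25, 5.52 and 4.84 CPM in WT mice. SOD1G86R replicate 4 was alone above all other mice in both genes, and the remaining mice of the groups overlapped.

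With all mice the log2 fold changes were 0.53 ± 0.41 for Scn7a (SE; adjusted p = 0.570, edgeR) and 0.26 ± 0.33 for Scn9a (adjusted p = 0.744, edgeR). Without SOD1G86R replicate 4 they were -0.12 and -0.16. The same library had 45.9 CPM of 8 markers of dorsal root ganglion neurons in sum, against 11.9 to 14.1 CPM in the other SOD1G86R mice and 12.7 to 14.4 CPM in WT mice. It also held 639 reads of Scn10a and 362 of Scn11a, sodium pores of sensory neurons that the rule leaves out, whereas every other library held at most 4 of either. The summed Schwann cell markers were 23.0 CPM in this mouse and 25.1 CPM in WT replicate 4, whose Scn7a and Scn9a levels were 5.52 and 5.02 CPM. The part of ganglion RNA in the sodium channel values was not tested.

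**Figure D4:**
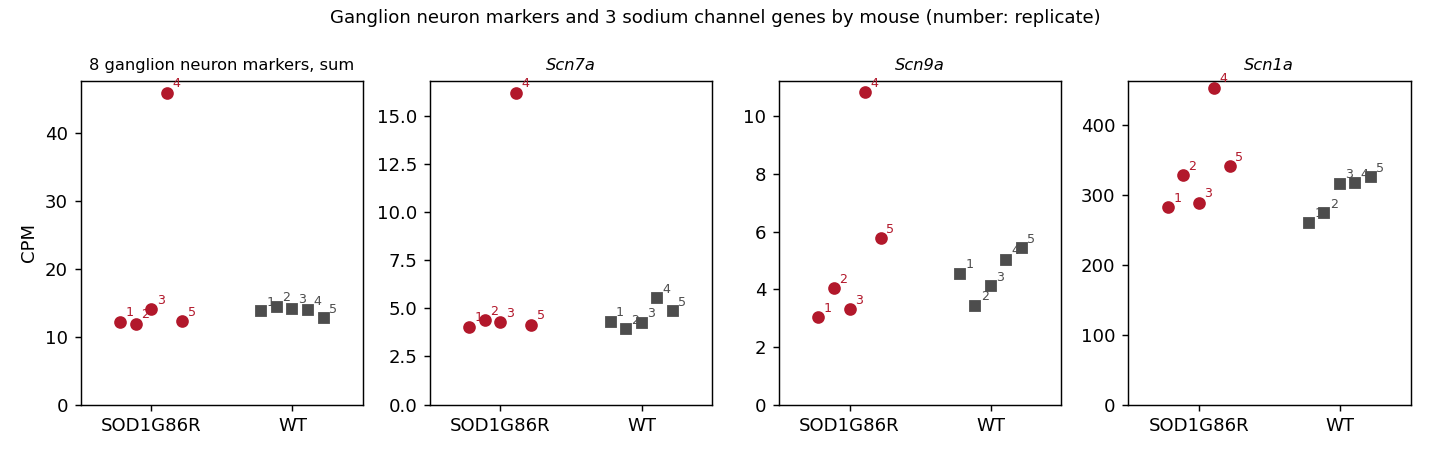
CPM of 8 dorsal root ganglion neuron markers in sum, Scn7a, Scn9a and Scn1a in the 5 SOD1G86R mice (red circles, left) and the 5 WT mice (grey squares, right), numbered by replicate. SOD1G86R replicate 4 is the highest point in each panel, at 45.9, 16.2, 10.8 and 453 CPM.

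SOD1G86R replicate 4 was the highest of its group for 17 of 33 channel genes, those tested apart from Scn4a, Cacna1s and Cacng1, and this included Scn1a, Scn8a, Scn4b and Cacnb4. Other mice stood at the end of their group as often, WT replicate 1 as the highest for 16 of the 33, WT replicate 2 as the lowest for 20 and SOD1G86R replicate 3 as the lowest for 16. Its Cacnb4 level was 207 CPM, against 135 to 164 CPM in the other SOD1G86R mice and 136 to 164 CPM in WT mice. Leaving out 1 mouse at a time gave 17 to 25 negative log2 fold changes, with medians of -0.11 to 0.003, and the lowest median came without this mouse. The median was 0.003 without SOD1G86R replicate 3 and without WT replicate 1, with 17 and 18 genes negative and 19 positive in each fit. When SOD1G86R replicate 4 was left out, 37 channel genes were tested and 25 had negative log2 fold changes, beside a median of -0.01 for all genes. At an unadjusted p under 0.05, 5 were then lower and 1 higher, beside 7.58% of all genes lower and 12% higher, and still none passed the adjusted threshold, beside 5.05% of all genes. This mouse also had the highest summed level of the neuron markers, 7791 CPM, and the lowest microglia marker sum of its group, 336.5 CPM, against 534 to 731 CPM in the other SOD1G86R mice and 252 to 324 CPM in WT mice. Gfap, an astrocyte marker, stood at 2418 CPM in this mouse, against 4443 to 6075 CPM in the other SOD1G86R mice and 2232 to 3076 CPM in WT mice, and the part of these differences in the channel values was not tested.

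Deviations between mice of 1 genotype followed transcript length. The 17 of the 33 genes with a longest transcript over 6000 bases include every pore apart from Scn4a, Cacna1s and Cacna1f. Their median log2 deviation from the mean of the 10 mice was -0.17, -0.04, -0.22, 0.18 and 0.13 in SOD1G86R replicates 1 to 5, against 0.06, -0.20, 0.05, 0.04 and -0.04 in WT replicates 1 to 5. In SOD1G86R replicate 3 all 17 were below the mean, in WT replicate 2 this held for 16, and in SOD1G86R replicates 4 and 5 16 were above it. Among genes outside the family with transcripts over 9000 bases the median deviation was -0.16 in SOD1G86R replicate 3, 0.16 in replicate 4 and 0.19 in replicate 5, and -0.22 in WT replicate 2. For those over 6000 and up to 9000 bases, the class of other channel genes such as Cacna1a, Scn1a and Cacnb4, the medians were -0.11, 0.09 and 0.1 in SOD1G86R replicates 3, 4 and 5, and -0.11 in WT replicate 2. In these 4 libraries the long channel genes and other long genes had deviations of the same sign, whereas in SOD1G86R replicate 1 the other long genes were at -0.01.

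The 9 channel genes with transcripts of up to 4000 bases, among them Cacnb1, Cacnb3, Cacng3 and Cacng5, had median deviations of -0.05, -0.03, -0.05, -0.07 and -0.16 in SOD1G86R mice, against 0.13, 0.04, 0.10, 0.07 and -0.04 in WT mice. Cacnb1, Cacnb3, Cacng3 and Cacng5 fall in the class over 2000 and up to 4000 bases. Other genes of that class had medians of 0, 0, 0.02, -0.03 and -0.03 in SOD1G86R replicates 1 to 5. Their medians were 0, 0.04, 0, 0 and -0.01 in WT replicates 1 to 5. Outside the family, shorter genes, of up to 2000 bases, had medians of 0.15 in SOD1G86R replicate 3 and 0.14 in WT replicate 2. Their medians were -0.12 and -0.15 in SOD1G86R replicates 4 and 5. With a correction for transcript length and GC content, chosen after the data were seen, 26 of the 36 channel genes had negative log2 fold changes, with a median of -0.08 beside -0.05 for all genes. In that fit 11 had an unadjusted p under 0.05 and were lower, beside 14.6% of all genes, and 0 passed the adjusted threshold, beside 1.38% of all genes. The smallest adjusted p-values there were 0.0146 for Cacnb1, 0.0340 for Cacng3 and 0.0382 for Cacna1b (edgeR).

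**Figure D5:**
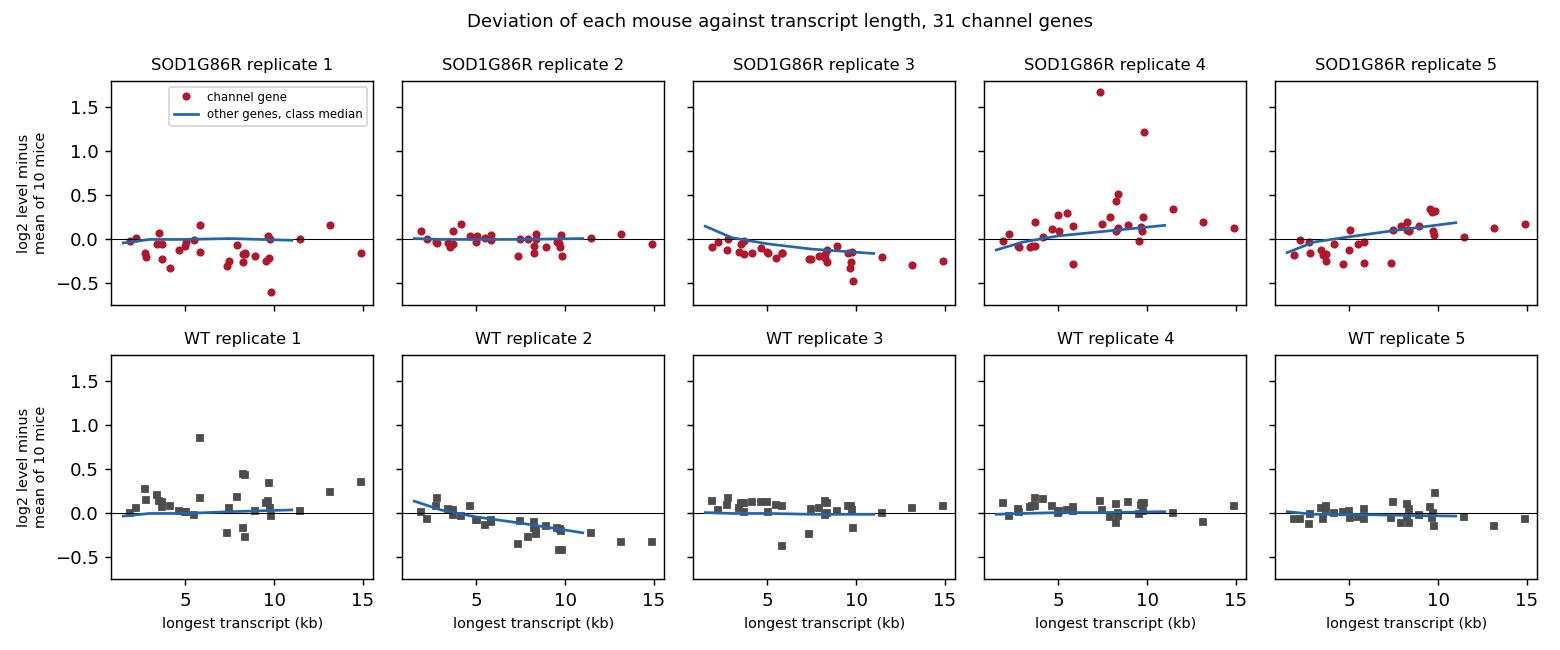
log2 level of 31 of the 33 channel genes in each mouse minus the mean of the 10 mice, against the longest transcript in kilobases, for SOD1G86R replicates 1 to 5 (upper row) and WT replicates 1 to 5 (lower row). The blue line joins the medians of other genes by length class, and it slopes down in SOD1G86R replicate 3 and WT replicate 2 and up in SOD1G86R replicates 4 and 5, as the points do.

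A further 34 genes were read, whose products bind, anchor, traffic or inhibit these channels or, for 4 of them, form the sodium leak channel complex. Of the 34, 1 was higher in SOD1G86R mice and 0 were lower, beside 0.866% of all genes higher and 0.253% lower. Nrcam, a cell adhesion protein that gathers sodium channels at nodes of Ranvier and is also made by glia, rose. It had 274, 253, 259, 253 and 303 CPM in SOD1G86R mice, against 198, 203, 207, 217 and 201 CPM in WT mice. Every SOD1G86R mouse was above every WT mouse, as in no other of the 34 genes, beside 3.09% of all genes apart and higher. The log2 fold change was 0.39 (adjusted p = 0.00447, edgeR). The adjusted p was 0.0131 without SOD1G86R replicate 1, and 0.0158, 0.0154, 0.0197, 0.0116 and 0.0160 without WT replicates 1, 2, 3, 4 and 5.

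The node and axon initial segment scaffolds that bind the sodium pores did not pass the test. The log2 fold changes were 0.00 for Ank3, the gene of ankyrin-G, -0.01 for Sptbn4, its spectrin partner, 0.11 for Nfasc and 0.08 for Cntn1. Of the calcium channel partners, Cabp1, a calcium-binding protein that modulates P/Q- and L-type pores, had 78.2, 75.2, 81, 83.2 and 75.5 CPM in SOD1G86R mice, against 100, 85.4, 95.1, 85.8 and 84.0 CPM in WT mice. Every SOD1G86R mouse was below every WT mouse, as in no other of the 34 genes, beside 1.84% of all genes apart and lower. The adjusted p was 0.0910 (edgeR, log2 fold change -0.20). Rrad, an inhibitor of calcium channels that is made in muscle, had a log2 fold change of 0.74 and Ncs1, a neuronal calcium sensor, -0.13, with adjusted p-values of 0.218 and 0.272 (edgeR). Of the 4 genes of the sodium leak channel complex, the pore gene Nalcn had a log2 fold change of -0.16 and an unadjusted p under 0.05, and none passed the test.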

How the data were processed

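Alignment by the authors was to the mm10 genome (TopHat2, version 2.0.14), followed by HTSeq (version 0.6.1) against Ensembl genes, and the deposited table holds the resulting raw counts per gene and mouse. The library kit and strand setting were not given in the sources used here. Gene names and lengths came from GENCODE M21 (GRCm38). Counts were scaled by TMM, filtered with filterByExpr and tested by genotype alone with edgeR 4.0.16 in R 4.3.3 (quasi-likelihood test, robust prior, Benjamini-Hochberg over all genes, threshold 0.01). DESeq2 1.42.0, limma voom (limma 3.58.1), other scalings and filters, the replicate number as a block, leaving out each mouse and an offset for length and GC content were tried as alternatives. The members and gene lists were chosen with earlier results of these data known. Members were named (2 are not reported here by name), with values per mouse where the unadjusted p was under 0.05, the groups did not overlap or a mouse stood apart. CPM per kilobase used merged exon length. No libraries were duplicates, and the p-values rest on 5 mice per group.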

Additional observations from a re-analysis of the deposited data

Results flagged for a closer look

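In 5 of the 72 groups of 5 mice examined for 36 of the 38 channel genes, 1 mouse was far from the other 4 by Dixon's criterion, and chance flags about 1 in 20 groups. SOD1G86R replicate 4 was the highest of its group in Scn7a, at 16.2 CPM with the next mouse at 4.38 CPM, and in Scn4b, at 629 CPM with the next at 508 CPM. WT replicate 1 was the highest in Cacnb1, at 46.6 CPM with the next at 42.3 CPM, and in Cacna2d4, a scarce alpha2delta subunit best known from the retina, at 6.45 CPM with the next at 3.64 CPM. WT replicate 5 was the highest in Cacng6, a gamma gene of muscle, at 0.542 CPM with the next at 0.159 CPM.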

How the results depend on the processing

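No channel gene was called under any of the alternatives run, and the smallest adjusted p among them was 0.0146. Over all genes, 190 were called, 816 with DESeq2, 59 with limma voom, 298 without the robust prior, 781 at an adjusted p under 0.05 and 31 to 868 without 1 mouse. The litter of each mouse was not given in the sources used here, so the test by genotype alone leaves out the litter matching. Deviations of same-numbered mice from their group means had correlations of -0.37 to 0.26, which cannot show whether the numbers stand for litters. The replicate block called 0 of the partner genes, against 1 without it and 0 to 1 without 1 mouse. Of 678 log2 fold changes recomputed, 22 changed sign. The length and GC offset gave -0.017 for Cacnb2, -0.003 for Cacnb4, -0.035 for Cacng2, -0.007 for Cacng7, -0.035 for Cacna1d and -0.005 for Scn8a. Without 1 mouse, the log2 fold change ranged from -0.051 to 0.118 for Cacnb4, -0.056 to 0.077 for Cacng2, -0.035 to 0.128 for Cacna1d, -0.147 to 0.018 for Cacna1e, -0.154 to 0.021 for Cacna1g, -0.110 to 0.003 for Scn4b, -0.054 to 0.033 for Scn2a, -0.133 to 0.028 for Scn3a, -0.117 to 0.659 for Scn7a and -0.158 to 0.403 for Scn9a. The cause was not tested. Depth limits Cacna1f, Cacng6, Cacng1 and Scn4a, which had few reads in some libraries.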
